A study of Mus musculus with 11 samples.

Results

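The kinesin motor genes were taken from the count table as every protein-coding gene whose symbol begins with Kif and a digit and ends in a digit or in the letter a, b or c, with repeated identifiers dropped. That rule found 38 of the 55487 gene identifiers in the table, of which 21936 were protein-coding. By their textbook roles 12 were placed among the mitotic kinesins, 13 among the transport kinesins and 13 in a remaining class of ciliary, centriolar, microtubule-regulating and little-studied members. A filter on low counts left 29 kinesins for testing, namely 11 mitotic, 11 transport and 7 of the remaining class.

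Kinesins are motor proteins that use ATP to walk along microtubules, or to take microtubule ends apart. Mitotic kinesins build the spindle, move and align chromosomes and close the cell after division, and the genes of many of them are read mainly in late interphase and mitosis. Transport kinesins carry vesicles, lysosomes, endosomes, mitochondria and other cargo toward the cell edge in dividing and resting cells alike, and macrophages use this traffic to place their lysosomes and adhesion structures.

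The libraries came from macrophages grown from the bone marrow of C57BL/6J mice aged 2 to 5 months, differentiated for 5 to 6 days in medium conditioned by CMG cells. Cells of the 4 treated libraries received the matricellular protein CYR61 at 0.5 µg/ml for 24 hours, and those of the 7 control libraries received none. RNA was depleted of ribosomal RNA before sequencing. The labels give neither separate animals nor separate cultures for the libraries, and no carrier solution for the controls. The p-values therefore measure how far these libraries scatter, and that scatter may be technical.

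Summed counts ran from 14912123 to 21047654 in control libraries and from 17390272 to 20760322 in CYR61 libraries. Levels are given as CPM, the usual depth-normalised count, after scaling by trimmed mean of M values (TMM). No libraries of a group agreed within sampling noise, since the chi-square per gene was 2.87 to 10.4 over 21 control pairs and 3.43 to 32.7 over 6 CYR61 pairs. CYR61 replicate 4 stood apart from the other CYR61 libraries, with 18.6 to 32.7 in its 3 pairs against 3.43 to 8.85 in the rest. Ribosomal RNA took 0.255% to 0.797% of counts in controls and at most 0.562% in CYR61 replicates 1 to 3, against 2.41% in CYR61 replicate 4. Mitochondrial genes took 0.953% of counts in CYR61 replicate 1, against 1.24% to 1.504% in the other 10 libraries. CYR61 replicates 1 and 4, which an earlier analysis of these data had set apart, were also left out together, and without both 6 mitotic kinesins fell in place of the 8 described below. The 7 macrophage markers summed to between 22208 and 23596 CPM in controls and between 24569 and 26788 CPM with CYR61. By the test used below 5 of them rose, where 5.33% of all genes were called higher. Most of that sum was Lyz2 (mean 17244 CPM in controls, 19563 CPM with CYR61). Mertk and Cd68 did not pass, Cd68 with a change of -2.21%. Marrow progenitor markers summed to at most 0.817 CPM in controls and 0.690 CPM with CYR61. Neutrophil markers summed to 40.0 to 46.6 CPM in controls and 37.8 to 46.4 CPM with CYR61, with Ly6g at 0. Nearly all of that sum was Mmp8 (43.1 CPM in controls, 41.7 CPM with CYR61), while S100a8 rose by 73.9% from 0.970 CPM (edgeR adjusted p = 0.0213). Osteoclast markers summed to 24.6 to 30.5 CPM in controls and 28.9 to 34.3 CPM with CYR61, with Calcr at 0. Most of that sum was Ctsk (mean 20.4 CPM in controls, 21.6 CPM with CYR61), which did not pass, nor did Dcstamp. Acp5 among them rose by 27.2% from 7.11 CPM (edgeR adjusted p = 0.0150). Dendritic markers summed to at most 2.13 CPM, fibroblast markers to at most 1.32 CPM and lymphoid markers to at most 0.370 CPM in any library. Of the lymphoid list Cd79a and Ms4a1 had counts, and Cd3e, Nkg7 and Trbc1 were at 0.

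CYR61 libraries held less mRNA of the mitotic kinesins. Of 11 tested, 8 fell, none rose and 3 did not pass the test. The 8 were Kif23, Kif2c, Kif20b, Kif20a, Kif11, Kif22, Kif4 and Kif18b, of which Kif11 fell by 11.4% and Kif23 fell by 17.6%, the others lying between. All 11 fold changes lay below 0, with a median log2 fold change of -0.22. Over all 15135 genes tested the median was -0.0076, and 52.5% lay below 0. The classes were drawn up with earlier results of these data known. That all members lay below 0 depends on Kif2a, which also acts in mitosis, being placed in the remaining class. Kif2a had a log2 fold change of 0.11. With Kif2a counted as mitotic, 8 still fell and the median was -0.21. The test was edgeR's quasi-likelihood test with Benjamini-Hochberg adjustment over all genes tested, at an adjusted p under 0.05. By that test 2.63% of all genes were called lower, 5.33% higher and 7.96% in either direction. Among the 8837 genes expressed at least as highly as the lowest mitotic kinesin tested, 3.77% were called lower and 7.77% higher, 11.5% in all. In bulk RNA, fewer cells in division and less of this RNA per cell cannot be told apart. The higher macrophage marker sum, S100a8 and Acp5 went with the same libraries, and their part in these differences was not tested.

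**Figure D1:**
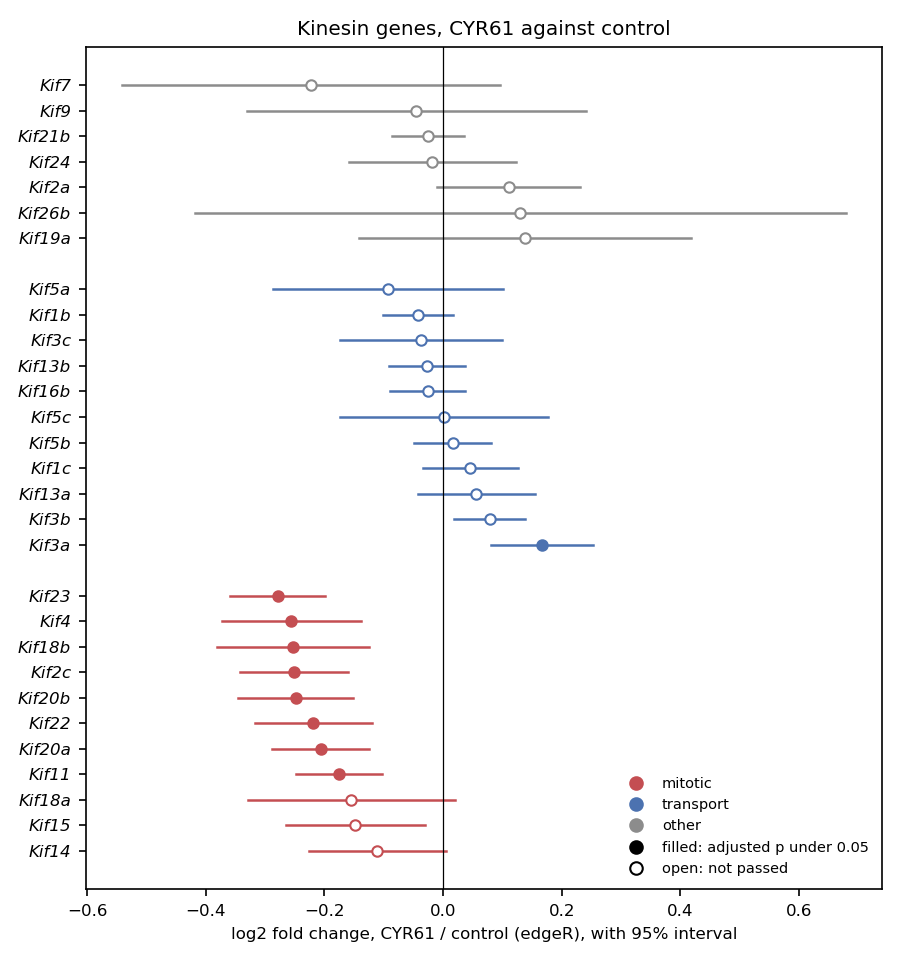
Log2 fold change (CYR61 over control, edgeR, x axis) of the 29 tested kinesins (y axis), with 95% intervals; filled points passed an adjusted p of 0.05 and open points did not. All 11 mitotic kinesins lie left of 0 with 8 filled points, and Kif3a is the filled point among 11 transport kinesins.

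The cytokinesis kinesins included the largest fall of the family. Kif23 (ENSMUSG00000032254) is the motor of centralspindlin, the complex that bundles the microtubules between separating chromosomes. Its level ranged from 57.2 through a median of 60.8 to 63.9 CPM in the controls. In the CYR61 libraries Kif23 stood at 51.6, 49.6, 51.0 and 47.7 CPM. Every CYR61 library lay below every control, and the mean went from 60.6 ± 2.55 CPM (SD, n = 7) to 49.96 ± 1.73 CPM (SD, n = 4). Kif23 thus fell by 17.6%, a log2 fold change of -0.28 (SE 0.038, edgeR adjusted p = 0.000106).

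Kif20a (ENSMUSG00000003779) brings the chromosomal passenger complex to the central spindle. Controls ranged from 66.9 through a median of 71.0 to 76.5 CPM. CYR61 libraries held 57.8, 61.3, 63.6 and 63.8 CPM of Kif20a. The groups did not overlap, and Kif20a fell by 13.3% (log2 fold change -0.21, SE 0.039, edgeR adjusted p = 0.00205). In the mouse annotation GENCODE M21, 29.3% of the exonic bases of Kif20a overlap Cdc23 on the opposite strand, and no source used here says whether the counting used strand. Its values are therefore uncertain to that extent.

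Kif20b (ENSMUSG00000024795), a relative that acts in late cytokinesis, ranged from 41.2 through 42.3 to 46.1 CPM in controls. With CYR61 it stood at 33.2, 36.4, 38.9 and 36.5 CPM, again without overlap. Kif20b fell by 15.8% (log2 fold change -0.25, SE 0.046, edgeR adjusted p = 0.00174). Kif14, which works with citron kinase at the midbody, overlapped between groups, with 25.3 to 30.3 CPM in controls and 25.1 to 27.3 CPM with CYR61. Its log2 fold change of -0.11 had a 95% interval of -0.23 to 0.0048 and did not pass the test (edgeR adjusted p = 0.267).

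Among the kinesins that set up the spindle, Kif11 (ENSMUSG00000012443) pushes the poles apart by sliding opposed microtubules. It was the mitotic kinesin with the most counts, at 82.2, a median of 86.8 and 90.6 CPM in controls. The CYR61 libraries held 75.2, 74.4, 80.1 and 79.4 CPM, all below the lowest control. Kif11 fell by 11.4%, the smallest change of the 8 (log2 fold change -0.18, SE 0.034, edgeR adjusted p = 0.00311). Kif15, which can share the pole-separating work of Kif11, went from 37.1 ± 2.90 CPM (SD, n = 7) to 33.5 ± 1.51 CPM (SD, n = 4) and did not pass (edgeR adjusted p = 0.128).

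Microtubule ends and chromosomes are the province of the other mitotic members. Kif2c (ENSMUSG00000028678) takes microtubules apart at centromeres, where it corrects faulty attachments. Its control values ran from 35.5 through 36.8 to 38.9 CPM. CYR61 libraries gave 29.9, 29.8, 32.8 and 32.2 CPM for Kif2c. No library overlapped, and Kif2c fell by 16.0% (log2 fold change -0.25, SE 0.043, edgeR adjusted p = 0.000901).

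Kif22 (ENSMUSG00000030677) is a chromosome-bound kinesin that pushes chromosome arms away from the poles. It ranged from 39.0 through 40.8 to 45.1 CPM in controls. Its CYR61 values were 37.8, 32.9, 35.9 and 34.9 CPM, all under the lowest control. Kif22 fell by 14.1% (log2 fold change -0.22, SE 0.047, edgeR adjusted p = 0.0060).

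Kif4 (ENSMUSG00000034311), the other chromosome-bound kinesin, also sets the length of the central spindle together with Prc1. Controls ranged from 23.9 through 26.2 to 27.7 CPM and CYR61 libraries held 21.7, 24.0, 19.8 and 21.8 CPM. CYR61 replicate 2 touched the lowest control, while the other 3 lay below it. Kif4 fell by 16.3% (log2 fold change -0.26, SE 0.056, edgeR adjusted p = 0.00658), and without CYR61 replicates 1 and 4 it did not pass (adjusted p = 0.0628). Pdzd11, on the opposite strand, overlaps 15.1% of its exonic bases.

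Kif18b (ENSMUSG00000051378) limits the length of astral microtubules. Its controls ran from 25.8 through 29.0 to 33.1 CPM and its CYR61 libraries stood at 24.8, 26.0, 23.1 and 25.0 CPM, so that the groups overlapped at CYR61 replicate 2. It fell by 16.1% (log2 fold change -0.25, SE 0.061, edgeR adjusted p = 0.0134), the weakest call of the 8. Without CYR61 replicate 3 the adjusted p of Kif18b was 0.0593, and without CYR61 replicates 1 and 4 it was 0.0794. Kif18a, which damps chromosome movements at the plate, was the scarcest mitotic kinesin tested, at 9.74 ± 0.654 CPM (SD, n = 7) and 8.74 ± 1.05 CPM (SD, n = 4), and did not pass (edgeR adjusted p = 0.313).

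**Figure D2:**
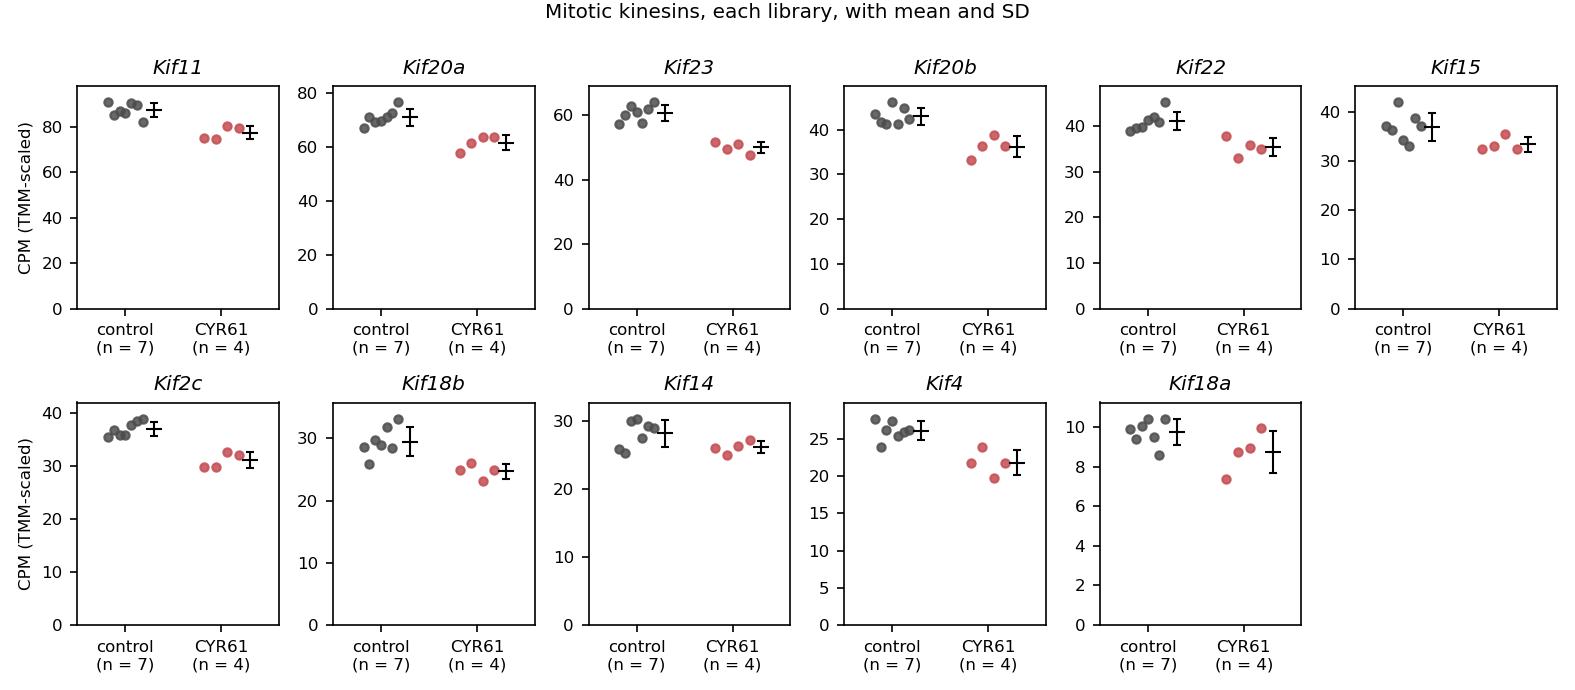
TMM-scaled CPM (y axis, from 0) of the 11 tested mitotic kinesins in each control (n = 7) and CYR61 (n = 4) library, with mean and SD beside the points. In 6 panels (Kif11, Kif20a, Kif23, Kif20b, Kif22, Kif2c) every CYR61 point lies below every control point.

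Groups did not overlap for 6 of the 11, all lower with CYR61, where 2.5% of all genes tested showed such a separation downward. Between the controls themselves the coefficient of variation of a mitotic kinesin had a median of 4.89%. No control library was high or low throughout: control replicate 7 was the highest in 5 of the 11 and control replicate 1 the lowest in 4. CYR61 replicates 1 and 2 were each the lowest of their group in 4 of the 11.

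Promoter sequence was compared because genes of the division machinery often carry a cell cycle homology region (CHR), a short element near the start site bound by the DREAM and B-MYB complexes, together with CCAAT boxes bound by NF-Y. Windows from 250 bases before to 50 bases after each start were taken from RefSeq on GRCm38.p6. They were searched on both strands for TTTGAA or TTCGAA (the CHR letters) and for CCAAT, and no matches of one overlapped those of the other. The stretches below, 30 bases each, hold the CHR letters (capitals, in either orientation) nearest the start in 6 mitotic kinesins. Each is written on the strand of its gene, at chr19:37376351-37376380 (Kif11, plus strand), chr9:122951050-122951079 (Kif15, plus), chr11:102925104-102925133 (Kif18b, minus), chr19:34922353-34922382 (Kif20b, plus), chr7:127042420-127042449 (Kif22, minus) and chr9:61946780-61946809 (Kif23, minus).
Kif11: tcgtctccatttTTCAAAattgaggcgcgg
Kif15: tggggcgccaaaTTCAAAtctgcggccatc
Kif18b: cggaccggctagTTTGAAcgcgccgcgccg
Kif20b: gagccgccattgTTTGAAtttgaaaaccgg
Kif22: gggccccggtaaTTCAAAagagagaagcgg
Kif23: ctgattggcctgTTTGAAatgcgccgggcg

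In these 6 genes the CHR letters began at position -19 in Kif11 and Kif15, -17 in Kif22, 3 in Kif23, 4 in Kif18b and 8 in Kif20b, counted from the start site. The 6 were chosen for a match within 20 bases of the start and a start within 50 bases of a GENCODE M21 start. Their nearness to the start was thus set by the choice. The wider stretch before the Kif11 start, chr19:37376232-37376381 on the plus strand, shows a reversed CCAAT box (ATTGG) ahead of the CHR letters. The stretch before the start of Kif3a, the transport kinesin that rose, is given for contrast, at chr11:53567314-53567368 on the plus strand, and holds a reversed CCAAT box but no CHR letters.
Kif11: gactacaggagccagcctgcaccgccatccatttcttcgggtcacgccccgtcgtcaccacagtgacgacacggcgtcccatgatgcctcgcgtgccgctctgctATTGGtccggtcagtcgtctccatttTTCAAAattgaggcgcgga
Kif3a: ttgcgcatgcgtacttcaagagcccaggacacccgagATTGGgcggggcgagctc

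Of the tested kinesins, 23 had a promoter entry (Kif20a was not among them), and 9 of 10 mitotic kinesins held the CHR letters, against 0 of 8 transport kinesins and 2 of 5 of the remaining class. Those 2 were Kif24 (-26) and Kif26b (-9), which also held CCAAT and did not pass the expression test. The letters occurred in 19.2% of all 32851 windows of that length and in 14.2% of those of tested protein-coding genes. Some genes have several windows. Counted by gene, as for the kinesins, the letters occurred in 5854 of 27025 genes and in 1582 of 9428 tested protein-coding genes. CCAAT was found in 6 of 10 mitotic and 3 of 8 transport kinesins, against 11096 of 27025 genes (37.4% of all windows). Both were present in 6 of the 10 mitotic kinesins, in 0 of the 8 transport kinesins and in 2328 of 27025 genes (7.52% of all windows). Kif18a lacked the CHR letters in its window. In 7 mitotic kinesins a match lay within 20 bases of the start, while those of Kif2c (-103) and Kif14 (-228) lay farther upstream. Positions depend on the start used: the RefSeq start lay 328 bases from the nearest GENCODE M21 start for Kif4, 87 bases for Kif14 and 28 bases for Kif2c, and those of Kif14 and Kif2c lay 1505 and 3867 bases from the outermost one. These are matches of letters, not measured sites.

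Transport kinesins showed no shared direction. Of 11 tested, Kif3a rose, none fell and 10 did not pass, and 5 fold changes lay below 0. Their median log2 fold change was 0.00076, on either side of which the members ran from -0.093 to 0.17. Over all genes tested 5.33% were called higher, so 1 of 11 is near the background.

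Kif3a and Kif3b form the heterotrimeric kinesin that serves cilia and the outward movement of vesicles. Kif3a (ENSMUSG00000018395) ranged from 64.8 through 68.1 to 71.6 CPM in controls. Its CYR61 libraries held 73.6, 85.1, 73.3 and 75.3 CPM, all above the highest control, with CYR61 replicate 2 well above the rest. Kif3a was 12.3% higher (log2 fold change 0.17, SE 0.041, edgeR adjusted p = 0.0154). The call rested on that library and on the scaling: the adjusted p was 0.0799 without CYR61 replicate 2 and 0.0686 with library size alone in place of TMM.

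Kif3b (ENSMUSG00000027475) ranged from 92.8 through 94.9 to 98.0 CPM in controls and stood at 101.6, 104.8, 98.0 and 98.7 CPM with CYR61. These groups did not overlap either, which 4.65% of all genes showed upward, but CYR61 replicate 3 lay only just above the highest control. The log2 fold change of 0.08 (95% interval 0.018 to 0.14) did not pass (edgeR adjusted p = 0.116). Kifap3, the accessory subunit of the same motor, stood at 27.5 ± 1.43 CPM (SD, n = 7) and 27.0 ± 2.29 CPM (SD, n = 4) and did not pass (edgeR adjusted p = 0.845).

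Kif1c (ENSMUSG00000020821), a vesicle motor studied at the podosomes of macrophages, had the highest level of the 38 kinesins named by the rule. Controls ranged from 225.5 through 234.7 to 239.7 CPM, and CYR61 libraries held 265.3, 229.9, 241.5 and 228.8 CPM. CYR61 replicate 1 was high and the others overlapped the controls, and the log2 fold change of 0.05 (95% interval -0.034 to 0.13) did not pass (edgeR adjusted p = 0.551). Without CYR61 replicate 1 it was -0.0017.

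Kif13b (ENSMUSG00000060012), a carrier of membrane-associated scaffold proteins, ran from 205.8 through 219.7 to 224.7 CPM in controls and stood at 219.2, 213.3, 212.7 and 212.2 CPM with CYR61. Kif5b (ENSMUSG00000006740), the widely expressed heavy chain of conventional kinesin and a mover of lysosomes and mitochondria, ran from 123.4 through 128.5 to 134.0 CPM and stood at 124.1, 129.5, 132.8 and 131.3 CPM. Both overlapped fully between groups. The log2 fold change was -0.03 (95% interval -0.092 to 0.037, edgeR adjusted p = 0.678) for Kif13b and 0.02 (95% interval -0.048 to 0.080, edgeR adjusted p = 0.829) for Kif5b. The other transport kinesins that did not pass were Kif1b, Kif3c, Kif5a, Kif5c, Kif13a and Kif16b, with log2 fold changes between -0.093 and 0.056. Of the exonic bases of Kif3c, 35.3% overlap 1110002L01Rik on the opposite strand, so its values are uncertain.

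**Figure D3:**
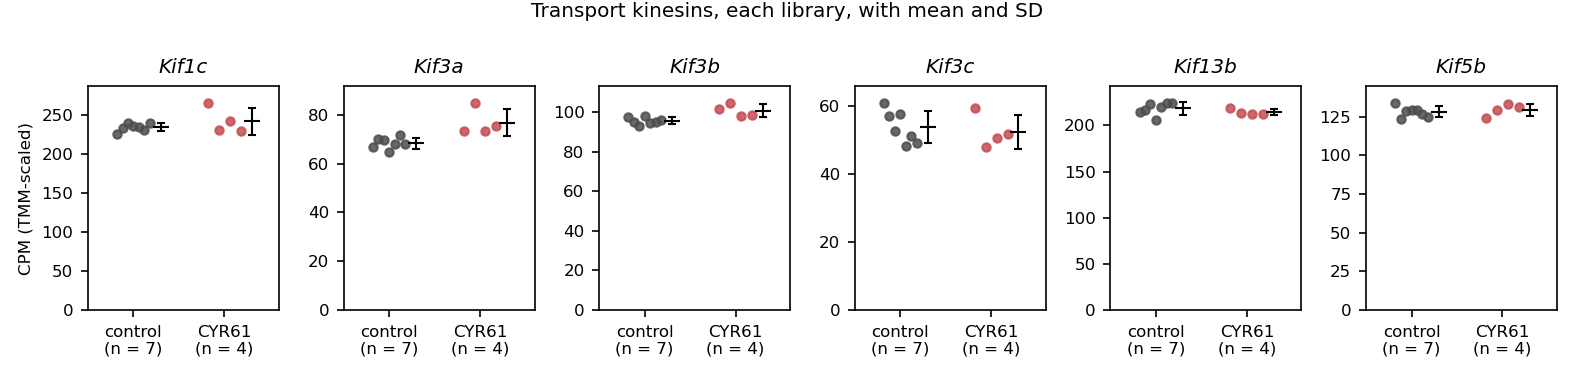
TMM-scaled CPM (y axis, from 0) of 6 transport kinesins in each control (n = 7) and CYR61 (n = 4) library, with mean and SD beside the points. All CYR61 points of Kif3a lie above the controls, with CYR61 replicate 2 at 85.1 CPM, whereas Kif13b and Kif5b overlap.

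None of the 7 tested kinesins of the remaining class passed, and their median log2 fold change was -0.02. Kif21b, which restrains microtubule growth, was the most expressed of them at 114.3 ± 3.33 CPM (SD, n = 7) and 112.2 ± 1.14 CPM (SD, n = 4). Kif2a, a microtubule-shortening relative of Kif2c used in interphase as well as mitosis, had a log2 fold change of 0.11 (95% interval -0.010 to 0.23), and Dimt1 overlaps 19.2% of its exonic bases. Kif7, Kif9, Kif19a and Kif26b, most of them known from cilia, stayed under 7 CPM in every library, and Kif24, which restrains cilium formation, lay between 13.5 and 17.1 CPM. On the opposite strand, 9330171B17Rik overlaps 19.1% of the exonic bases of Kif7, so its values are uncertain.

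The 9 kinesins that were not tested were close to absent. Kif2b, Kif6 and Kif28 had no count in any of the 11 libraries, for which the floor of 3 counts in a library corresponds to 0.140 to 0.197 CPM. Kif12 and Kif26a reached 1 count, Kif21a 2, Kif17 4, Kif27 6 and Kif1a, a motor of neuronal vesicles, 7 counts in a library. Such counts give counting error only and allow no comparison.

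Levels of different genes were compared per kilobase of exonic sequence. On that scale Kif1c led at 32.1 CPM per kb in controls, followed by Kif3a at 19.1, Kif3b at 16.9, Kif13b at 16.8, Kif20a at 16.4, Kif5b at 16.0 and Kif11 at 11.7 CPM per kb. Kif3b, Kif13b, Kif20a and Kif5b could not be ordered, since each overlapped the next over the 7 controls. Of the 28 neighbouring pairs in the order of 29 tested kinesins, 13 had control ranges that did not overlap. At the low end stood Kif18a at 0.991 and Kif26b at 0.110 CPM per kb.

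Summed per kilobase, the tested mitotic kinesins ranged from 76.1 through 78.7 to 82.2 CPM per kb in controls. The CYR61 libraries stood at 66.4, 67.1, 69.0 and 68.7 CPM per kb, all below, and the mean was 14.0% lower. Transport kinesins ranged from 128.9 to 130.9 CPM per kb in controls and stood at 137.1, 134.6, 133.0 and 130.8 CPM per kb with CYR61, with a mean 2.91% higher. The ratio of the sums was 0.606 ± 0.0146 (SD, n = 7) in controls and 0.507 ± 0.0187 (SD, n = 4) with CYR61. No CYR61 library reached the lowest control ratio of 0.587, the highest being 0.525. These sums are descriptions, and no test was made of them.

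**Figure D4:**
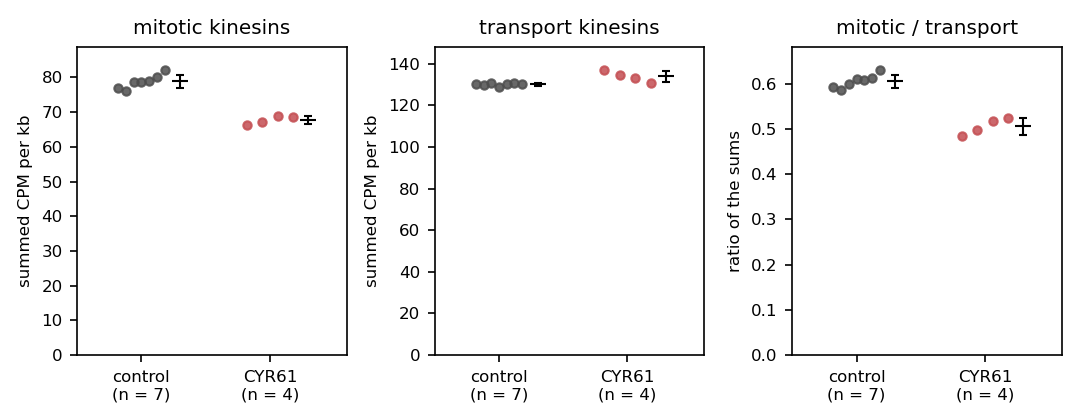
Summed CPM per kb of the 11 mitotic kinesins, of the 11 transport kinesins, and the ratio of the sums (y axes, from 0) in each control (n = 7) and CYR61 (n = 4) library, with mean and SD. The mitotic sum lies at 66.4 to 69.0 with CYR61 against 76.1 to 82.2 in controls.

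Of 28 spindle and cytokinesis partners of the mitotic kinesins, 20 fell, none rose and 8 did not pass, where 2.63% of all genes were called lower. The median log2 fold change was -0.17 with all 28 below 0. This list, like the other lists here, was written with earlier results of these data known. Its comparison with all genes therefore carries no independent weight. The 4 of lowest p were Cenpf (-0.36), Mki67 (-0.35), Aspm (-0.32) and Nuf2 (-0.31) in log2 fold change, with edgeR adjusted p-values from 2.09e-06 to 0.000222. Over 22 other settings the count ran from 9 to 26. It fell to 12 when control replicates 5 to 7 were left out. Without CYR61 replicates 1 and 4 it was 9, where 290 of 15651 genes tested were called lower. The direct partners were looked up after the values were seen. Racgap1, which joins Kif23 in centralspindlin, fell by 8.17% (edgeR adjusted p = 0.0257), and Prc1, which recruits Kif4, fell by 14.2% (edgeR adjusted p = 0.000242).

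Among 6 kinesins whose names fall outside the rule, Cenpe fell and the other 5 (Kifc1, Kifc2, Kifc3, Kifc5b and Stard9) did not pass. Of the 6 fold changes 5 lay below 0, and 2.63% of all genes tested were called lower. Cenpe, the motor that carries chromosomes to the plate, went from 83.0 ± 2.65 CPM (SD, n = 7) to 69.8 ± 3.26 CPM (SD, n = 4), a fall of 15.9% (edgeR adjusted p = 0.000171). Genes of DNA replication, which precedes mitosis, did not share the direction: of 16 none passed, 5 lay below 0 and the median log2 fold change was 0.05. A single replication gene passed as higher without control replicate 7 and likewise without CYR61 replicate 2.

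On the transport side, 1 of 17 tested cargo adaptors and light chains rose and none fell, a share near the 5.33% of all genes called higher. That gene was Rab7, the small GTPase of late endosomes and lysosomes, at 373.2 ± 4.29 CPM (SD, n = 7) and 407.3 ± 4.96 CPM (SD, n = 4), 9.12% higher (edgeR adjusted p = 0.0037). With library size alone it did not pass, and 3 others of the list were called lower. Of 17 tested genes of dynein and dynactin, the motor that runs the opposite way and its activator, Dctn3 rose by 12.0% (edgeR adjusted p = 0.0435) and none fell, again a share near that of all genes. That list held no call once any of control replicates 1, 3, 4, 6 and 7 or any of CYR61 replicates 2, 3 and 4 was left out.

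**Figure D5:**
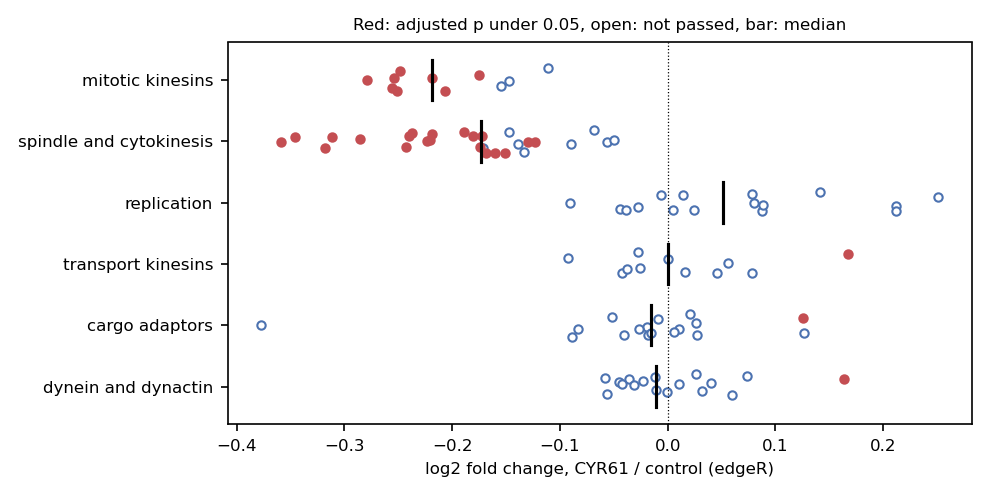
Log2 fold change (CYR61 over control, edgeR, x axis) of each tested gene in 6 lists (y axis), with the median as a bar; filled points passed an adjusted p of 0.05. The mitotic kinesins and the spindle and cytokinesis partners lie left of 0, and the other 4 lists straddle it.

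The scaling mattered for the balance of calls over all genes but not for the direction of the mitotic kinesins. With library size alone, 529 genes were called higher and 938 lower, against 806 and 398 with TMM, and the median of all genes went from -0.0076 to -0.05. Under that scaling 9 mitotic kinesins fell, with Kif15 added, and no kinesin rose. In the authors' deposited table, which held all 29 tested kinesins among 13999 genes, 8 were lower and 2 higher at an adjusted p under 0.05. The share of all its genes called was not counted here, so these counts have no background beside them. The authors' deposited table gave Kif3b an adjusted p of 0.0242 and Kif3a one of 0.00345.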

How the data were processed

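RNA of 7 control and 4 CYR61 macrophage libraries was sequenced as paired reads after ribosomal RNA removal, per the labels' protocols. The authors deposited estimated counts per gene (expected counts, not all whole) and a table of log2 fold changes, p-values and other statistics such as a moderated score. DRAGEN is named in the submitters' processing notes; no source used here gives its role or version, the genome build or the strand setting.

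Estimated counts were rounded. Genes were filtered with filterByExpr, scaled by TMM and tested with edgeR 4.0.16 (R 4.3.3) as CYR61 against control over all 11 libraries, without covariates. Levels per kb used GENCODE M21 exon lengths. Promoters came from RefSeq (GRCm38.p6). On simulated data the procedure recovered 41 of 67 genes changed 1.2-fold and all 67 changed 1.5-fold, with 10 false calls among 184. A gene that did not pass was therefore not shown to be unchanged. Members and lists were chosen with earlier results of these data known. Values per library are given for members past the threshold, for Kif11, Kif20a and Kif23, and for the 5 non-mitotic members of highest CPM per kb; lists name up to 4 members of lowest p. Alternatives covered DESeq2 1.42.0, limma-voom 3.58.1, scaling, filters, genes tested, a replicate block and left-out libraries. The list counts under these settings were chosen after seeing the data. Depth, 14912123 to 21047654 counts, makes a floor of 3 counts worth 0.140 to 0.197 CPM.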

Additional observations from a re-analysis of the deposited data

Results flagged for a closer look

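Each tested kinesin and each class sum per kb was checked within each group, 64 checks in all. In 3 of them a single library stood apart from the others of its group by a gap that took most of the group's range. Chance flags about 1 in 20 groups. For Kif3a, CYR61 replicate 2 was the highest of its group at 85.1 CPM, with the others between 73.3 and 75.3 CPM. For Kif13b, CYR61 replicate 1 was the highest of its group at 219.2 CPM, with the others between 212.2 and 213.3 CPM. For Kif24, control replicate 5 was the lowest of its group at 13.5 CPM, with the others between 15.7 and 17.1 CPM.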

How the results depend on the processing

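Of 638 single-kinesin values recomputed over 22 settings, 607 kept their direction and side of the threshold, 8 calls were lost, 1 was gained and 22 changed sign, none of the last in a called kinesin. The number of kinesins, and of transport kinesins, called higher went from 1 to 0 with library size alone, at an adjusted p under 0.01 and without CYR61 replicate 2, and was 0 to 1 over the left-out libraries; the cause was not tested. The mitotic count lower was 7 to 8 and the mitotic median log2 fold change -0.23 to -0.19 over single left-out libraries, and the transport median was -0.02 to 0.02. Without CYR61 replicates 1 and 4 together the mitotic count was 6, with Kif18b (adjusted p 0.0794) and Kif4 (adjusted p 0.0628) lost.

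Replicate numbers showed no sign of pairing the samples. Same-numbered correlations were -0.01, -0.00097, -0.03 and 0.03, and differently numbered ones ran from -0.083 to 0.13. The labels do not say what the numbers mark, and such values cannot exclude pairing. With the replicate number as a block on 8 libraries, 6 mitotic kinesins were called lower, against 7 on the same 8 without the block. Kif18b was already lost on those 8 libraries without the block (log2 fold change -0.192, adjusted p 0.0581; 0.104 with it). Kif22 was lost with the block alone (adjusted p 0.0590 against 0.0385), its log2 fold change being -0.177 and -0.176.

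Signs changed in uncalled kinesins, as log2 fold changes. Over single left-out libraries Kif24 ran from -0.054 to 0.019, Kif26b from -0.242 to 0.342, Kif9 from -0.225 to 0.068, Kif1c from -0.00168 to 0.0721, Kif3c from -0.103 to 0.00589 and Kif5c from -0.0785 to 0.0532. Kif24 was 0.000775 without control replicate 4, and Kif5c -0.0112, -0.00101, -0.00988 and -0.0125 without control replicates 1 to 4. Kif26b was -0.116 with the block, -0.0499 on the same 8 libraries and -0.525 without CYR61 replicates 1 and 4, where Kif9 was 0.134. Kif16b was 0.00361 with the block and 0.00328 on the same 8. With library size alone Kif5b was -0.0292 and Kif5c -0.0438; Kif5c was -0.000738 with DESeq2, -0.0107 with limma-voom and -0.00687 on protein-coding genes. Low counts limit Kif7, Kif9, Kif19a and Kif26b.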

Other observations

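Of 10 tubulin genes, the building blocks of the tracks on which kinesins run, 1 rose and none fell, with a median log2 fold change of 0.0094. Over all genes tested 5.33% were called higher and 2.63% lower, so a single call among 10 says little of the list. That gene was Tuba1a, at 47.6 ± 4.88 CPM (SD, n = 7) in controls and 56.4 ± 3.58 CPM (SD, n = 4) with CYR61 (edgeR adjusted p = 0.0282), and its groups overlapped. No tubulin passed once control replicate 3, control replicate 5 or any of CYR61 replicates 2, 3 and 4 was left out.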
